A study of Mus musculus with 2 samples.

Results

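The genes described here encode the proteins of the cytosolic ribosome. Members were the genes with a protein-coding transcript whose symbol follows the Rps (small subunit) or Rpl (large subunit) naming pattern, including Rpsa, Rplp0, Rplp1 and Rplp2, and no measured value entered the choice. There were 83 members among 55536 annotated genes, of which 22028 were protein-coding. The members divide into 32 small-subunit and 51 large-subunit genes.

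Total RNA had been depleted of ribosomal RNA and sequenced in 2 libraries from bone marrow-derived macrophages, primary cells of C57BL/6J mice. All cells had received lipid A, the part of bacterial lipopolysaccharide that TLR4 recognises, at 100 ng/ml for 25 min. The RNA came from a fraction that the sample description calls nucleoplasmic and another label calls the nucleus, and sex and age were not collected. Both libraries belong to 1 group, so no untreated, cytoplasmic or other-time group was analysed here and no test between conditions could be made. The libraries carry separate biological replicate numbers but 1 donor entry, and SDs over them (n = 2) measure the spread between these libraries, which may be technical. Replicate 1 was made from 500 ng of RNA and replicate 2 from 1 µg, with a fragment size range of 250 to 400 in both. In bulk RNA, fewer cells that express a gene and less RNA per cell cannot be told apart. The strand setting of the counting is not stated in the labels or files used here.

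Estimated counts on annotated genes summed to 13506939 in replicate 1 and 17932332 in replicate 2. Where a gene has 0 counts, up to 3 counts remain possible, or 0.222 CPM (counts per 1000000 counts) in replicate 1 and 0.167 CPM in replicate 2. Of 8 macrophage markers, 8 had at least 1 TPM in both libraries, with values from 25.18 to 1708.41 TPM, while 0 of 12 markers of other marrow cells did, and the highest of their values was 0.49 TPM. TPM is the estimated count per length, scaled to a library total of 1000000, and levels of different genes are compared in TPM only. Mitochondrially encoded genes took 4.68% of counts in replicate 1 and 5.06% in replicate 2. The nuclear RNA Malat1 took 10.2% and 10.7% of counts in replicates 1 and 2.

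Ribosomal proteins join ribosomal RNA in the nucleolus and nucleus to form a small subunit, which decodes the mRNA, and a large subunit, which joins amino acids into protein. Their mRNAs are abundant in the cytoplasm of most cells. Mammalian ribosomal protein mRNAs typically begin with a C followed by a run of C and T (a terminal oligopyrimidine tract), through which mTOR signalling and the protein Larp1 control their translation. Many of these genes carry small nucleolar RNAs (snoRNAs) in their introns, and snoRNAs guide the chemical modification of ribosomal RNA. Several ribosomal protein genes also regulate their own splicing, and unspliced or partly spliced RNA is found in the nucleus.

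The start sites of the members are shown first because the pyrimidine tract at the start is a feature of the family that the naming rule did not use. RefSeq (GRCm38.p6) start-site sequences were matched for 63 of the 83 members, with 75 start sites in all. Each line gives the 15 bases before the annotated start and the 15 bases from the start onward, read 5′ to 3′ on the strand of the gene, with the longest run of C or T in capitals. The first 5 were picked for their runs and the last 2 because Rpl10 and Rpl10a were among the highest members by TPM.
Rpl7a, chr2:26910792-26910821, plus strand: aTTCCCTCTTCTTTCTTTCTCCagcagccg
Rpl27a, chr7:109519180-109519209, plus strand: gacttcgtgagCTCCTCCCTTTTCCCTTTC
Rpl35, chr2:39005117-39005146, minus strand: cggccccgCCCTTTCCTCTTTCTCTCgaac
Rps6, chr4:86857353-86857382, minus strand: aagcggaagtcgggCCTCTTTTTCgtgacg
Rps24, chr14:24490663-24490692, plus strand: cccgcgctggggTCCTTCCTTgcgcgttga
Rpl10, chrX:74270801-74270830, plus strand: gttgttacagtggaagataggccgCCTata
Rpl10a, chr17:28328456-28328485, plus strand: gtggcgCCCCCCCagcggccgcaaactgca

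The run spans 21 bases in Rpl7a and 3 in Rpl10. In Rpl10a the printed run ends before the annotated start, so a run in these windows need not begin the transcript. The shares given next are therefore not shares of transcripts that begin with a pyrimidine tract. Within 20 bases of the start on the strand of the gene, a run of at least 8 C or T was present in 41.3% of the 75 member start sites, against 16.0% of all 32851 start sites in the table. For a run of at least 10 the shares were 30.7% of member sites and 7.39% of all sites. The median longest run was 7 bases at member sites and 5 at all sites. The 5-letter word CTTTC occurred in the same window at 25.3% of member sites and 5.49% of all sites, and CTTCC at 22.7% and 8.81%, and both words can lie inside such a run. Over the whole sequence of 250 bases before to 50 bases after the start, searched on both strands, CCGGAAG occurred at 36% of member sites and 8.86% of all sites. CCGGAAG matches the core that ETS-family factors are known to bind. GGGCGG occurred at 60% of member sites and 35.7% of all sites, and TATAA at 24% and 24.9%. These are matches of letters and not shown binding sites. The 32851 sites were not limited to genes detected here, and a comparison with detected genes alone was not computed. The 30 countable members with a run of at least 8 had a median of 32.1 TPM in replicate 1 and 23.6 TPM in replicate 2, against 31.7 and 27.9 TPM for the 30 with shorter runs.

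The ribosomal protein genes were nearly all detected, at moderate levels. In both libraries 80 of the 83 members reached 1 TPM (96.4%), against 44.5% of all protein-coding genes. At least 10 TPM was reached by 71 members, against 18.9% of all protein-coding genes, and at least 50 TPM by 9 members, against 3.54% of all protein-coding genes. The median level of the members was 30.5 TPM in replicate 1 and 24.3 TPM in replicate 2, or 4.82 ± 0.226 as log2(TPM + 1). All protein-coding genes together had medians of 0.77 and 0.43 TPM. The protein-coding genes that were countable (10 counts or more in each library) had median log2 levels of 3.31 and 2.85. As shares of the library, the members took 0.166% of the counts in replicate 1 (95% Wilson interval 0.164 to 0.169) and 0.179% in replicate 2 (0.177 to 0.181), where intervals cover counting error only. Of the 80 detected members, 62 had at least 100 counts in both libraries and 2, Rpl10 and Rpl3, had at least 1000.

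In TPM over all members, the median levels of small-subunit and large-subunit genes differed by less than the spread between libraries. The small-subunit median was 31.0 TPM in replicate 1 and 24.2 TPM in replicate 2, against 30.5 and 24.3 TPM for the large subunit, a difference of 0.0083 ± 0.0162 on the log2(TPM + 1) scale (SD, n = 2). This difference was −0.056 in a second, alignment-free table described below, −0.029 over countable members and 0.10 on CPM. Each of these was larger in size than that SD, and their signs were not the same. All 32 small-subunit members were detected. The 3 undetected members were all of the large subunit.

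**Figure D1:**
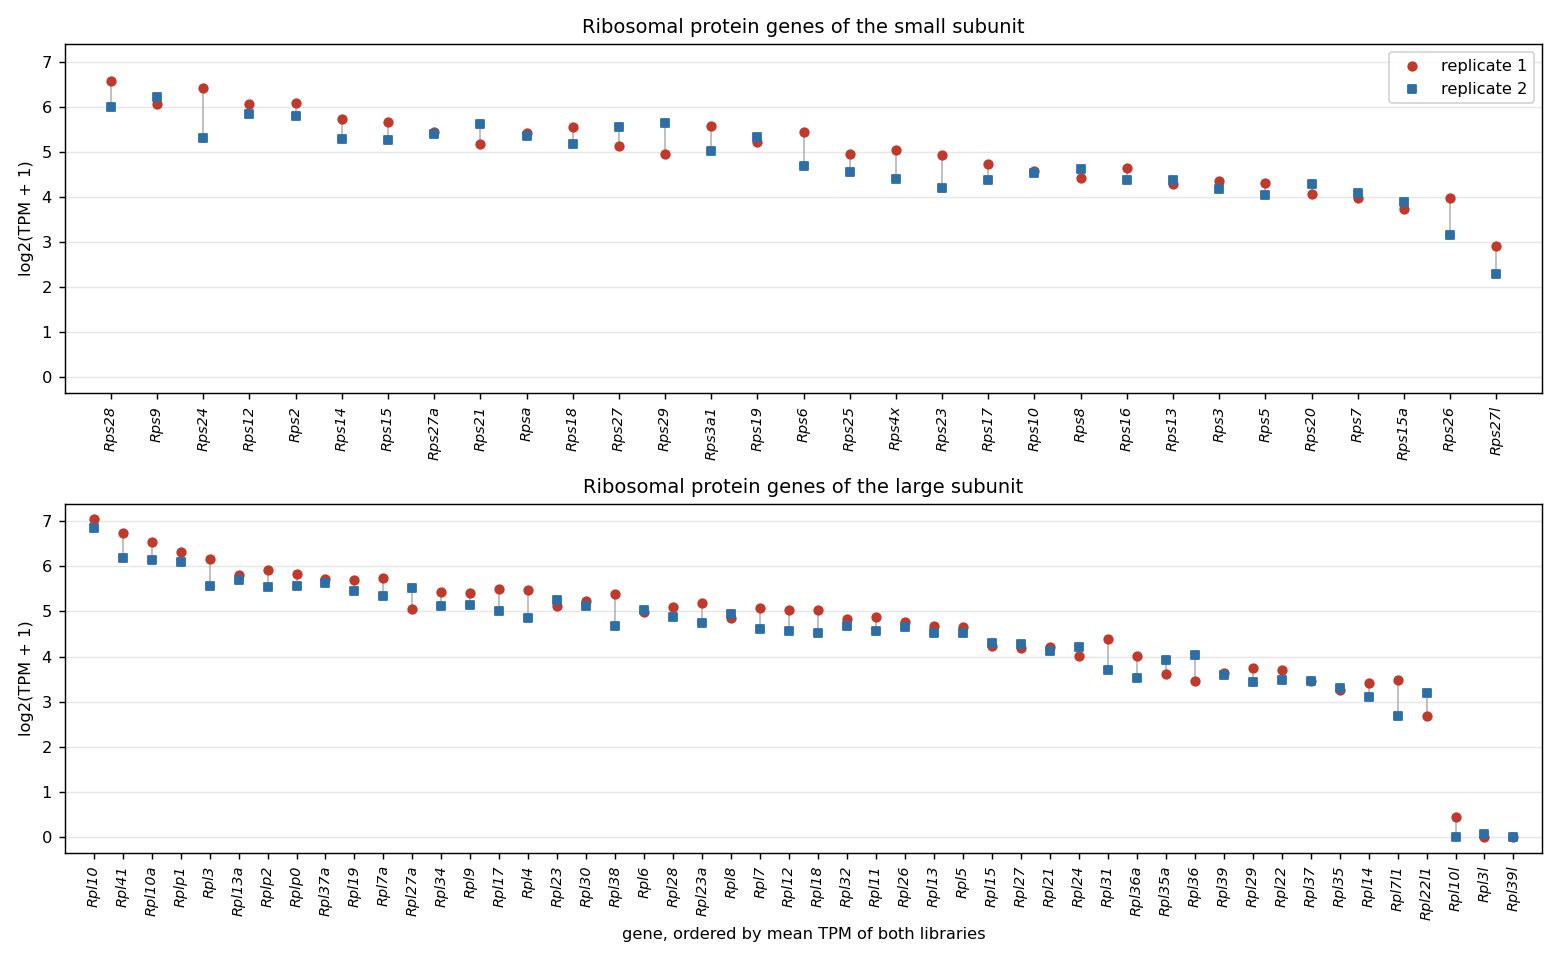
Level of ribosomal protein genes as log2(TPM + 1), with small-subunit genes above and large-subunit genes below, ordered by mean TPM; circles are replicate 1, squares replicate 2 and grey lines join them. Rpl10 stood at 130.87 and 114.34 TPM at the high end, and Rpl10l, Rpl3l and Rpl39l lay at or near 0 in both libraries.

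Among large-subunit genes, Rpl10 was the highest in the gene table. Rpl10, whose protein is added late in the assembly of the large subunit, had 130.87 TPM in replicate 1 and 114.34 TPM in replicate 2 (123 ± 11.7). Rpl41, which encodes one of the smallest proteins of the cell, had 106.56 and 72.42 TPM in replicates 1 and 2. Rpl10a, a protein of the mobile stalk at which spent tRNAs leave, had 92.80 and 69.88 TPM. These 3 genes were also the highest of the large subunit in each library of the gene table taken alone. In the alignment-free table Rpl41, with 56.5 and 13.9 TPM, exceeded Rpl10, with 46.1 and 13.7 TPM, in both libraries, and Rpl7, with 47.6 TPM, exceeded Rpl10 in replicate 1. Rplp1, an acidic protein of the stalk that recruits translation factors, had 79.27 TPM in replicate 1 and 67.93 TPM in replicate 2, and its partner Rplp2 had 59.96 and 45.88 TPM. Rpl3, a core protein near the site of peptide bond formation, had 70.78 and 46.44 TPM. Rpl13a, whose human counterpart is also known in an inflammatory translation-silencing complex, had 55.48 and 50.91 TPM.

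Among small-subunit genes, Rps28 was highest by mean, with 94.11 TPM in replicate 1 and 63.22 TPM in replicate 2. Rps9 had 65.72 and 73.14 TPM and was the only one of the 12 highest members with the higher TPM in replicate 2. Rps24, one of the genes mutated in Diamond-Blackfan anaemia in humans, had 85.05 TPM in replicate 1 and 38.66 TPM in replicate 2, so its libraries stood further apart (SD 32.8 TPM) than those of any other of the 12. Rps12 had 65.84 and 56.33 TPM, and Rps2, a protein of the mRNA entry channel, had 67.41 and 54.76 TPM. Beyond the first few the order was loose. The 10 highest members of each library shared 8 genes, and Rplp1, Rps9, Rps24, Rps12, Rps2 and Rpl3, with means of 73.6, 69.4, 61.9, 61.1, 61.1 and 58.6 TPM, each overlapped the next in their values over the libraries. The 10 highest members held 29.5% of the members' summed TPM in replicate 1 and 27.6% in replicate 2.

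At the low end stood paralogues and some core genes. Rps27l had 6.48 TPM in replicate 1 and 3.87 TPM in replicate 2, Rpl22l1 had 5.39 and 8.16 TPM, and Rpl7l1, a gene linked to large-subunit assembly, had 10.19 and 5.36 TPM. Among the core genes, Rpl14 had 9.57 and 7.61 TPM, Rpl35 had 8.55 and 8.89 TPM, Rpl37 had 9.90 and 10.05 TPM and Rpl22 had 11.95 and 10.12 TPM. Rpl35, whose start site holds one of the longest pyrimidine runs printed above, was thus among the lowest core genes. In the alignment-free table described below, Rpl35 had 5.34 and 1.94 TPM, against 46.1 and 13.7 TPM for Rpl10, a smaller fold than in the gene table.

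In each of the 6 pairs of a core gene with a paralogue among the members, the core gene exceeded its paralogue in both libraries. Rpl7 had 32.55 and 23.36 TPM in replicates 1 and 2, against 10.19 and 5.36 TPM for Rpl7l1. Rps27 had 34.02 and 45.89 TPM, against 6.48 and 3.87 TPM for Rps27l. The closest pair was Rpl22, a protein also known from lymphocyte development, at 11.95 and 10.12 TPM, against 5.39 and 8.16 TPM for Rpl22l1. These levels cover all transcript types. Protein-coding transcripts took 89.7% and 85.9% of the counts of Rpl22, but 0% and 13.4% of those of Rpl22l1. Retained-intron transcripts took 93.9% and 79.4% of the counts of Rpl22l1. Rpl3 had 70.78 and 46.44 TPM, against 0 and 0.04 TPM for Rpl3l, a paralogue of striated muscle. Rpl10 had 130.87 and 114.34 TPM, against 0.36 and 0 TPM for Rpl10l, a retrogene used in the male germ line. Rpl39, a protein of the exit tunnel, had 11.51 and 11.02 TPM, against 0 and 0 TPM for Rpl39l, known from male germ cells. Rpl10l had 4 counts in replicate 1 and 0 in replicate 2, Rpl3l had 0 and 1, and Rpl39l had 0 in both, so these 3 were at or near the limit of detection.

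Ribosome components outside the naming pattern, of which 3 are given, lay within the range of the members. Fau, a fusion of a ubiquitin-like protein with a small-subunit protein, had 85.53 TPM in replicate 1 and 61.04 TPM in replicate 2. The scaffold protein Rack1 had 29.73 and 27.81 TPM. Rpl36al, a paralogue of the member Rpl36a, had 8.01 and 11.12 TPM, against 15.2 and 10.47 TPM for Rpl36a. In this pair, which is not one of the 6 above, the core gene was higher in replicate 1 and lower in replicate 2.

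The members stood above the genes of the mitochondrial ribosome. The median level of the members exceeded that of the 78 mitochondrial ribosomal protein genes by 2.72 ± 0.107 on the log2(TPM + 1) scale (SD, n = 2), and 70 of those 78 genes were detected. The highest of that list was Mrpl24 with 79.09 TPM in replicate 1 and 51.87 TPM in replicate 2, followed by Mrps9 with 24 and 15.8 TPM and Mrpl37 with 16.61 and 12.01 TPM. The members exceeded the 31 ribosome assembly genes by 2.05 ± 0.021 and the 36 translation factors by 0.57 ± 0.119. Among assembly genes, the nucleolar proteins Ncl, Npm1 and Nop56 were highest, with 49.13, 42.94 and 35.33 TPM in replicate 1 and 32.11, 21.55 and 19.06 TPM in replicate 2. The translation factors held genes above every member: Eef1a1, which brings tRNAs to the ribosome, had 740.39 and 571.84 TPM, the helicase Eif4a1 had 206.01 and 180.96 TPM, and Tpt1 had 172.01 and 165.5 TPM.

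**Figure D2:**
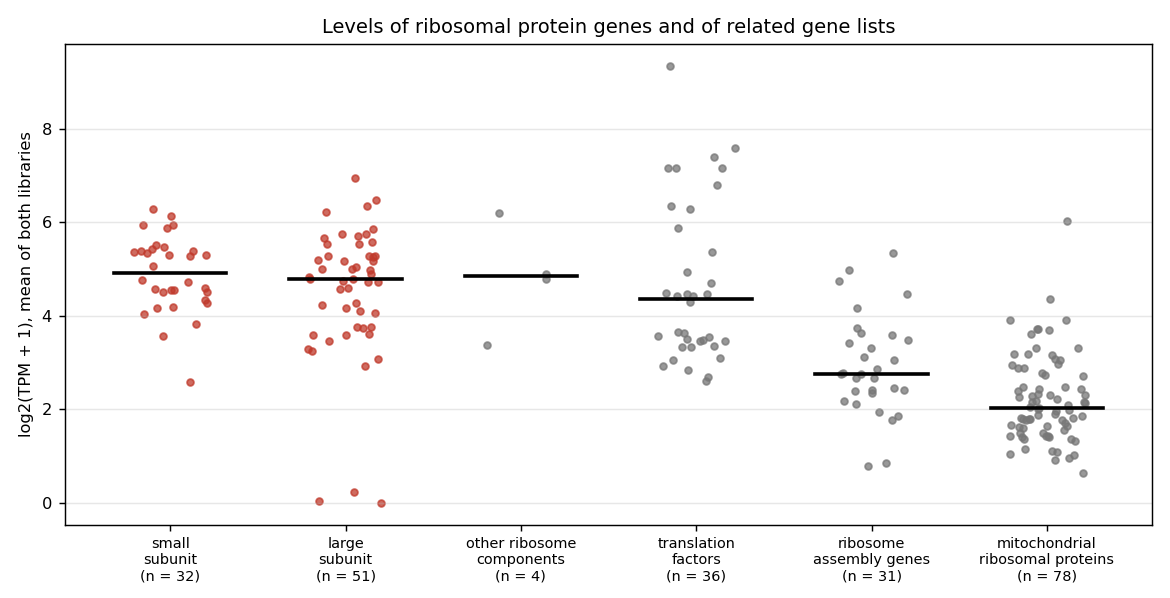
Level of each gene as log2(TPM + 1), averaged over both libraries, for the small-subunit and large-subunit ribosomal protein genes (red) and 4 other gene lists (grey); each point is 1 gene and each bar the median of its list. The members sit above the mitochondrial ribosomal protein and ribosome assembly genes, and Eef1a1 among the translation factors lies above every member.

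Transcript tables split each gene's counts between annotated transcript types. Protein-coding transcripts took 67.7% of the members' counts in replicate 1 and 68.4% in replicate 2. Transcripts annotated as retaining an intron took 25.5% and 24.5%, a mean of 25.0% ± 0.707, against 15.5% ± 0.676 for all protein-coding genes together. As shares of TPM, these transcripts took 20.2% and 21.4% in replicates 1 and 2, against 19.9% and 21.4% for all protein-coding genes. The excess over protein-coding genes was thus seen in counts and not in TPM. Transcripts marked for nonsense-mediated decay took 3.49% and 3.42% of the members' counts, and processed transcripts 3.37% and 3.76%. These types share exons, so a share is the quantifier's division of reads and holds exonic reads as well as intronic ones.

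Of the 80 countable members with 10 counts or more in each library, 64 had an annotated retained-intron transcript, which is 80% against 60.6% of countable protein-coding genes. Over these 64 the median share was 17.6% in replicate 1 and 21.8% in replicate 2, against 17.2% and 16.7% over protein-coding genes with such a transcript. In both libraries, 10 of the 64 had a share of at least 50% (15.6%, against 11.9% of protein-coding genes with such a transcript), and 15 had at most 10% (23.4%, against 31.6%). The 10 were Rpl3, Rpl5, Rpl10, Rpl10a, Rpl22l1, Rpl27a, Rpl35a, Rpl37, Rps16 and Rps19, and they held 54.9% of the members' retained-intron counts in replicate 1 and 51.3% in replicate 2. Summed over genes, the share was 29.1% and 27.1% for the large subunit and 19.6% and 20.2% for the small subunit in replicates 1 and 2. For mitochondrial ribosomal protein genes it was 28.9% and 28.6%. Across the 64 members, the shares of both libraries correlated with Pearson's r = 0.923 and Spearman's rho = 0.909, as a description over genes that share libraries and annotation. The share and the TPM of a gene had a rho of 0.046 in replicate 1 and 0.089 in replicate 2.

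**Figure D3:**
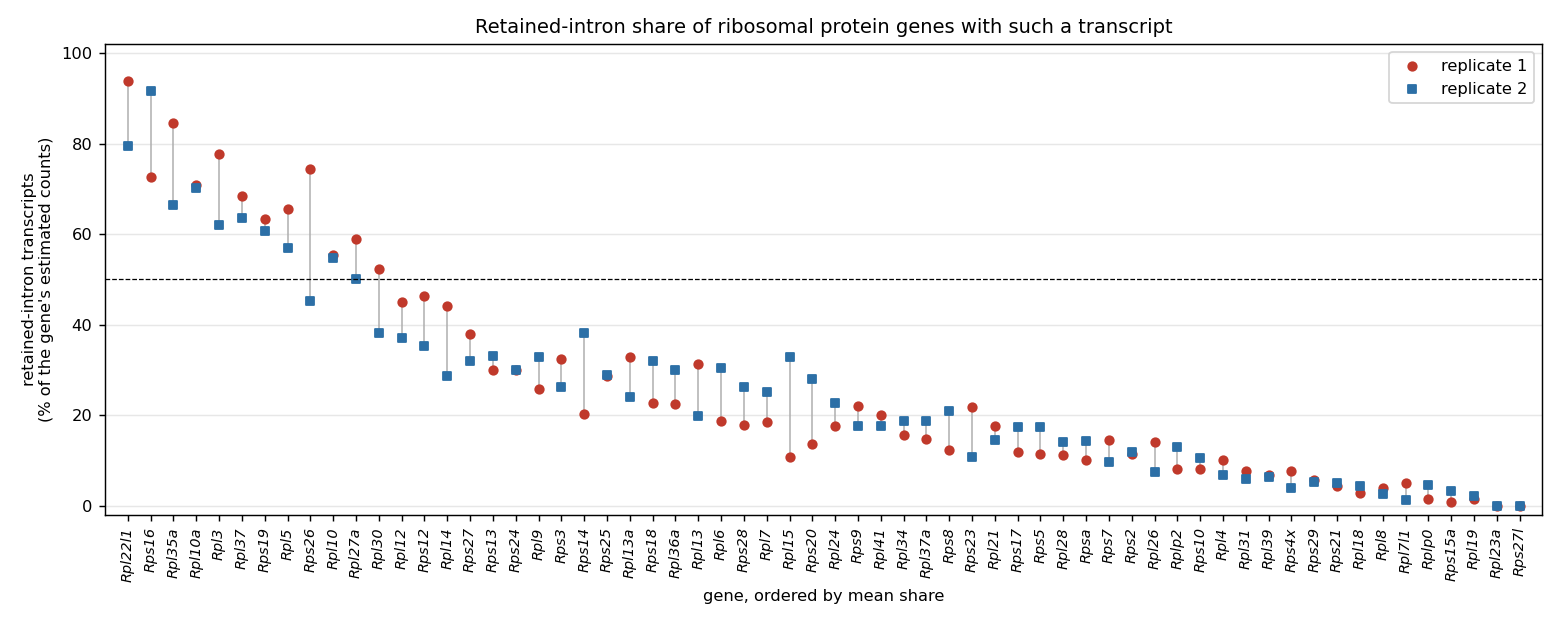
Share of each gene's estimated counts assigned to its retained-intron transcripts, in percent, for countable ribosomal protein genes with such a transcript, ordered by mean share; circles are replicate 1, squares replicate 2, and the dashed line marks 50%. Rpl22l1, Rps16 and Rpl35a lie highest. Rps27l and Rpl23a lie at 0 in both libraries of the aligned table, but were above 0 in the alignment-free one.

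Among members with 100 counts or more in each library, the 6 highest shares belonged to Rps16, Rpl35a, Rpl10a, Rpl3, Rps19 and Rpl5. Rpl10a had 70.8% in replicate 1 and 70.2% in replicate 2, and its main retained-intron transcript, Rpl10a-206, had 453 and 583 counts. Rpl3 had 77.7% and 61.9%, mostly through Rpl3-204 with 727 and 595 counts. Both genes were thus counted mainly through transcripts that keep an intron, and each was among the 12 highest by TPM. Rps19, the gene most often mutated in Diamond-Blackfan anaemia in humans, had 63.3% and 60.6%. Rpl5, which carries the smallest ribosomal RNA of the large subunit and can bind the p53 regulator Mdm2, had 65.5% and 57.0%. Rps16 had 72.7% and 91.6%, and Rpl35a had 84.6% and 66.5%, the widest spreads of the 6 (SD 13.4 and 12.8 percentage points) and resting on 125 and 142 counts in replicate 1. In the alignment-free table Rps16 had 42.3% and 64.7% and Rpl35a 50.4% and 43.3%.

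The lowest shares under the same count minimum included those of Rpl23a, Rpl19, Rps15a, Rplp0 and Rpl7l1. Rpl23a, a protein at the exit of the peptide tunnel, had 0 counts on 2 such transcripts in both libraries. In the alignment-free table its share was 6.98% in replicate 1 and 2.08% in replicate 2. Rpl19 had 1.54% and 2.14%, and Rps15a had 0.836% and 3.14%. Rplp0, the core of the stalk that recruits translation factors, had 1.36% in replicate 1 and 4.43% in replicate 2 at 55.90 and 46.70 TPM, so a high level occurred without a high share. Rpl7l1 had 4.91% and 1.24%.

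The splice sites of introns that were kept whole in highly counted retained-intron transcripts are shown next. The counts are of whole transcripts, and reads inside these introns were not counted separately. Each donor line has the last 6 bases of the exon in capitals and the first 14 bases of the intron, and each acceptor line has the last 14 bases of the intron and the first 6 of the next exon in capitals, 5′ to 3′ on the strand of the gene, from mm10 and GENCODE M21. The introns are those of Rpl3 (chr15:80081032-80081614, minus strand, intron 3 of 9), Rpl10a (chr17:28329048-28329373, plus strand, intron 3 of 5), Rpl10 (chrX:74271025-74271659, plus strand, intron 2 of 6) and Rps19 (chr7:24885207-24885451, plus strand, intron 2 of 5).
Rpl3 donor: GAACTGgtaagaggctcttg
Rpl3 acceptor: ctctgctcctgaagGCACAA
Rpl10a donor: CGTCAGgttggcaccgctct
Rpl10a acceptor: cctcccaaacgcagGCTCAA
Rpl10 donor: CCGGTGgtgagtgctgaacc
Rpl10 acceptor: ccttccttctatagTTACCG
Rps19 donor: CAAAAAgtaagtgtttgttg
Rps19 acceptor: tctcttggttctagGTCCGG

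All 4 introns begin with GT and end with AG, and they span 583, 326, 635 and 245 bases in the order Rpl3, Rpl10a, Rpl10 and Rps19. Of the 64 members, 34 had a highest-counted retained-intron transcript that kept at least 1 whole intron of the highest-counted coding transcript, while in 30 it kept none whole. Among members with a share of at least 50% in both libraries, Rps16, Rpl5 and Rpl37 were in these 30. The others were in the 34. The 34 transcripts kept 59 of the 353 introns of the countable members, and all 59 begin with GT and end with AG. Of the 59, 9 were first introns and 12 last introns. The 353 introns came from 80 members, each with 1 first and 1 last intron. Their median length was 322 bases, with a range of 76 to 2281, against 363 bases for all 353 introns. A snoRNA gene lay inside 15 of the 59, in 12 members. The countable members hold 58 snoRNA genes, and the share of all 353 introns with a snoRNA gene was not computed.

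The coding transcript was not the leading one in every member. The highest-counted transcript was of the protein-coding type in 67 of 80 members, of the retained-intron type in 8, of the nonsense-mediated decay type in 4 and a processed transcript in 1. The same split over all protein-coding genes was not computed, so it is not known whether the members differ from them. Rpl10 had its coding transcript Rpl10-201 at 348 and 504 counts, beside the retained-intron transcript Rpl10-207 at 288 and 373 counts. Their order turned in the alignment-free table, with 61.4 and 40.3 counts for Rpl10-201 and 531 and 432 counts for Rpl10-207. Large nonsense-mediated decay shares, chosen after their values were seen, were those of Rpl12 with 35.7% in replicate 1 and 45.3% in replicate 2, and Rpsa with 33.9% and 40.8%. For Rpl12 this was transcript Rpl12-201, with 114 of 319 and 170 of 375 counts in replicates 1 and 2. In the alignment-free table Rpl12-201 had 36.5 of 280 and 47.4 of 210 counts, a smaller part. Rps23 had the largest share of processed transcripts, 61.7% and 55.1%.

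Of the 83 members, 30 hold 58 snoRNA genes on the same strand, 65 to 203 bases long. Of these 58, 47 had 0 counts in the gene table of both libraries, and 3 had more than 3 counts in both. These were Snord15b in Rps3 with 37.8 counts in replicate 1 and 252 in replicate 2, Snord15a in Rps3 with 43 and 146, and Gm26448 in Rpsa with 20 and 231. All 3 had more counts in replicate 2, the library with more counts in all, as did the sum over the 58 (108 counts in replicate 1 and 678 in replicate 2). In TPM, Snord15b had 789 and 1561, Snord15a 773 and 787, and Gm26448 63.1 and 260, in replicates 1 and 2. Snord15a was thus nearly equal between libraries in TPM. In the alignment-free table described below, 14 of the 58 were at 0 in both libraries and the sums were 562 counts in replicate 1 and 1163 in replicate 2, so both the count of undetected snoRNA genes and the gap between libraries were smaller there. All 58 are shorter than the lower end of the fragment size range, 250, and the effect of this on their counts was not tested. The 25 snoRNA hosts with a retained-intron transcript had median retained-intron shares of 29.9% in replicate 1 and 27.9% in replicate 2, against 15.5% and 17.7% in the 39 members without a snoRNA gene. These are shares of aligned counts. The contrast was not computed for shares of TPM, for the alignment-free table or for snoRNA hosts among all genes. Its cause was not tested. At the gene level, 15 members overlapped a protein-coding gene of the opposite strand, such as Rpl3, which overlaps Syngr1 (39.57 and 36.52 TPM), so reads in those overlaps are uncertain if strand was not used. The share of all protein-coding genes with such an overlap was not computed.

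Pseudogenes named after a member took few of the counts, and pseudogenes with other symbols were not counted as copies. The annotation names 288 processed or other pseudogenes of 56 members by symbol, and 160 of them had 0 counts in both libraries. Together they took 3.57% of the counts of members plus named pseudogenes in replicate 1 and 2.87% in replicate 2 (3.22% ± 0.495). Only 15 had at least 10 counts in both, led by Rps2-ps9 with 79 and 73 counts, Rps2-ps11 with 58.7 and 76.8 and Rpl3-ps1 with 40.9 and 35.2. Without alignment, Rpl3-ps1 had 6.51 and 0 counts and Rps23-ps1, chosen after its values were seen, had 89.7 and 119, against 19.3 and 47.2 in the gene table, so the order of these copies differed between the tables. Rps2 itself had 655 and 963 counts. Reads shared with such copies are split by the quantifier, so counts of Rps2 and of other members with expressed copies are uncertain at least to that extent.

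The libraries ranked the members alike. Over the 80 countable members, log2(TPM + 1) correlated with Pearson's r = 0.922 and TPM with Spearman's rho = 0.923 between libraries, as a description over genes of the same libraries. The 14584 countable genes had a median log2 ratio of replicate 1 to replicate 2 of 0.42 on the TPM + 1 scale, and the ratios given next are relative to it. The members had a median ratio of −0.20, with 58 of 80 below the all-gene median (72.5%, against 50% of all genes by construction). No member was over 2-fold higher in replicate 1 (0 of 80, against 0.487% of all genes), and 2 were over 2-fold lower (2.5%, against 1.22% of all genes), so that 2 of 80 passed 2-fold in either direction, against 1.71% of all genes. They were Rps29 and Rpl36, and Rpl36, with 23 and 70.5 counts, is named after its values were seen. In the alignment-free table described below, the median turned to 0.37 on the TPM + 1 scale but was −0.11 with a pseudocount of 0.1 TPM and −0.36 for CPM, and for CPM of the gene table it was −0.31. The sign thus turned with the pseudocount and unit used in that table.

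Rps29, a zinc-binding small-subunit protein, had 29.77 TPM in replicate 1 and 48.92 TPM in replicate 2, a log2 ratio of −1.12. The next lowest ratios among members with at least 50 counts were those of Rpl22l1 (−0.94), Rpl27a (−0.87, from 32.37 and 44.61 TPM) and Rps21 (−0.87, from 34.95 and 47.96 TPM). Among the highest were those of Rps24 (0.69), Rps26 (0.40, from 14.84 and 7.94 TPM) and Rpl7l1 (0.39). Before centring, 58 of the 80 members had the higher TPM in replicate 1, while by CPM only 28 did, so the uncentred direction depended on the unit.

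Each library also had a second transcript table with counts and TPM made from the reads without alignment, summed here to genes. In this alignment-free table the members held 38997 counts in replicate 1 and 38942 in replicate 2, which is 0.154% and 0.148% of its counts. Their summed TPM was 1596 and 470, against 2910 and 2433 in the gene table. All countable genes moved too: the median log2 ratio of the alignment-free to the gene table, on the TPM + 1 scale, was −0.45 in replicate 1 and −1.30 in replicate 2, and ratios are given relative to these medians.

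**Figure D4:**
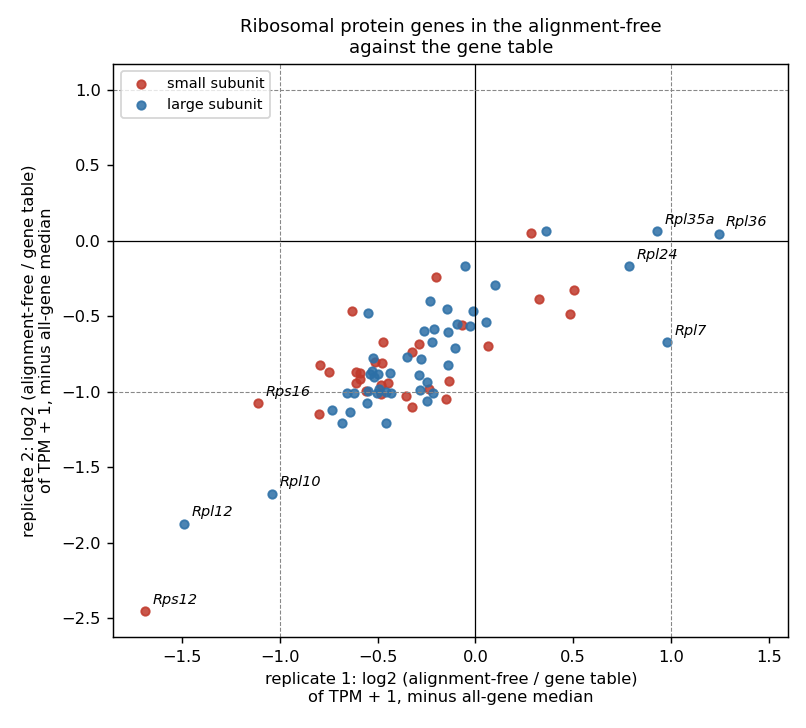
Log2 ratio of the alignment-free to the gene table for countable ribosomal protein genes, on the TPM + 1 scale minus the all-gene median, in replicate 1 (horizontal) and replicate 2 (vertical); red is the small and blue the large subunit, and dashed lines mark 2-fold. Most genes lie below 0 in both libraries, with Rps12, Rpl12, Rpl10 and Rps16 lowest.

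Most members stood lower in the alignment-free table than genes in general. Their median centred ratio was −0.61, and 73 of 80 members were below the all-gene median (91.2%, against 48.6% of all genes). On CPM the median was only −0.11, and with a pseudocount of 0.1 TPM it was −0.38. In replicates 1 and 2 it was −0.35 and −0.87 for members, and −0.35 and −0.50 for translation factors. Components outside the naming pattern had −0.53 and −0.91, assembly genes 0.012 and −0.0085, and mitochondrial ribosomal protein genes 0.08 and 0.30. The part of a gene's level in these ratios was not tested. On both libraries' mean, 4 members were over 2-fold lower (5%, against 0.761% of all genes) and 0 over 2-fold higher (0%, against 7.59% of all genes), so that 4 of 80 passed in either direction, against 8.35% of all genes. From replicate 2 alone 21 members passed 2-fold, against 12.4% of all genes, and from replicate 1 alone 5, against 9.3% of all genes. The 5 lowest were Rps12 (−2.07), Rpl12 (−1.68), a protein at the base of the factor-binding stalk, Rpl10 (−1.36), Rps16 (−1.09) and Rps2 (−0.97). Rps12 had 325 and 284 counts in the alignment-free table, against 358 and 564 in the gene table, in replicates 1 and 2. The annotation names 23 pseudogenes of Rps12, which had 26.8 and 26.6 counts in the gene table, and their part in the difference was not tested.

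The 5 highest were Rpl36 (0.65), Rpl35a (0.50), Rpl24 (0.31), Rpl39 (0.21) and Rps27l (0.17). Rpl36 had 139 and 178 counts in the alignment-free table, against 23 and 70.5 in the gene table, and Rpl24 had 180 and 237, against 73.5 and 161. The libraries did not move alike here: Rpl36 was at 1.24 in replicate 1 and 0.05 in replicate 2, and Rpl24 at 0.79 and −0.17. The retained-intron share of all members together was 27.8% and 27.4% in the alignment-free table, against 25.5% and 24.5% in the aligned one. The highest-counted transcript was the same in both tables for 67 of the 80 members.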

How the data were processed

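Expected counts and TPM per gene and per transcript, and each transcript's percent of its gene, were deposited by the authors. Per the deposited readme they come from reads aligned to the transcriptome, with mm10 and GENCODE M21. Estimated counts and TPM of the alignment-free table were deposited too, and the authors made them from reads without aligning. Quantifiers and strand setting are not stated in the labels or files used here. Rows that name no annotated gene (26345, with 0.350% and 0.0785% of counts in replicates 1 and 2) stayed out of totals. TPM was used as deposited, and rows under 200 bases held 24.7% and 25.0% of it.

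Values per library, means and SDs were computed with Python 3.11.15, pandas 2.3.3, numpy 2.4.6 and scipy 1.17.1, and figures with matplotlib 3.10.9. A gene was detected at 1 TPM and countable at 10 counts in both libraries, and logs used TPM + 1. For TMM factors (edgeR 4.0.16) and DESeq2 1.42.0 size factors in R 4.3.3, counts were rounded to whole numbers. Counting of fold changes was tried on simulated counts, with planted changes larger than the cut-off and ratios of CPM. It thus does not test the calls made here on TPM + 1. A simulated share was also summed, which does not test the quantifier's split between transcripts.

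Named genes were the 12 highest and 10 lowest members, the extremes of retained-intron share (6 each way, at least 100 counts), of the ratio between libraries (4 each way, at least 50 counts) and of the ratio between tables (5 each way), paralogue pairs, 4 other components and the 3 highest of each other list. Members and lists were chosen with earlier results of these data known. Alternatives were other tables, units, pseudocounts, minimums and scalings, and each library alone. A few genes that enter every count and sum are not reported here by name or drawn in the plots gene by gene.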

Additional observations from a re-analysis of the deposited data

How the results depend on the processing

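No paired analysis was possible because both libraries belong to 1 group. For the same reason the ratio between libraries has no value without a replicate. The count of 80 detected members was 80 in the alignment-free table and in each library alone, and 79 at a minimum of 5 TPM. The alignment-free table gave a median level of 3.42, a difference from mitochondrial ribosomal protein genes of 2.05, a small minus large difference of −0.056, shares of 0.151% of counts, 27.6% for retained-intron and 65.0% for protein-coding transcripts, a median retained-intron share of 25.4%, and a pseudogene share of 4.54%. CPM gave a level of 4.19, differences of 2.08 and 0.10, and a median ratio between tables of −0.11. Rescaled TPM gave a level of 5.33. A pseudocount of 0.1 TPM gave a difference from mitochondrial ribosomal protein genes of 3.02. Between tables it was chosen after seeing the data, and gave a median ratio of −0.38 with 3 members past 2-fold. At least 10 counts in both libraries gave a small minus large difference of −0.029. Protein-coding genes as denominator gave a share of 0.230%. Shares of TPM gave 20.8% for retained-intron and 71.3% for protein-coding transcripts. The median ratio of replicate 1 to replicate 2, −0.20, was −0.30 with a pseudocount of 0.1 TPM, −0.22 with at least 100 counts, −0.34 with TMM and −0.36 with DESeq2. It turned round to 0.37 in the alignment-free table with TPM + 1 and to 0.22 with no minimum count, where most genes are at or near 0 and set the centre. Chosen after seeing the data, it was −0.31 with CPM, −0.36 with alignment-free CPM and −0.11 in the alignment-free table with a pseudocount of 0.1 TPM. The count of members past 2-fold between libraries, 2, became 0 with at least 100 counts, 4 with TMM, DESeq2 or CPM, and 1 in the alignment-free table with that pseudocount. Between tables, no minimum count gave a median ratio of −1.47 with 69 members past 2-fold, and the count of 4 ranged from 5 to 21 with 1 library left out. The cause of these moves was not tested. With 2 libraries and no second group, the spread between libraries is the only error, and members under 100 counts have the least precise shares.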
